A study of Mus musculus with 8 samples.

Results

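Fatty acids reach tissues across the capillary wall, and the capillary endothelium carries its own machinery for this. Lipoprotein lipase, held on the luminal surface by GPIHBP1, releases fatty acids from triglyceride-rich lipoproteins, CD36 and the fatty acid transport proteins take part in their uptake, FABP4 and FABP5 bind them inside the cell, and caveolin-1 forms the caveolae in which CD36 can reside. MEOX2 and TCF15 act as a pair of transcription factors that set this program in heart capillaries, and PPARγ is a lipid-activated nuclear receptor whose known targets include Cd36, Fabp4 and Lpl. The 10 genes Lpl, Gpihbp1, Cd36, Slc27a3, Fabp4, Fabp5, Cav1, Meox2, Tcf15 and Pparg were chosen by symbol as a list of these capillary fatty acid uptake genes and their regulators. All 10 were found among the 20057 genes of the table, and all 10 passed the filter on low values with which 12969 genes were tested.

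The genes were measured by RNA-sequencing in tumor endothelial cells of B16-F10 melanoma, a transplantable mouse tumor line, grown under the skin of C57BL/6 male mice that were 8 weeks old and received 250000 tumor cells. Mice of the treated group were given 2 peritumoral injections of 30 µg of agonistic CD40 mAb (FGK4.5), on days 13 and 16, and mice of the control group the same amount of the isotype control, rat IgG2a (2A3). The sample labels place the dissection 1 day after the last injection, whereas the methods also name a second time, of 4 days. About 100000 live CD45-CD31+ cells were sorted per sample and 10 ng of RNA was used per library, with 4 libraries per group, each named after its mouse: 5N, 6L, 6R and 10N for agonistic CD40 mAb, and 5L, 7N, 8N and 9L for isotype control. The tumors were those of a single line in a single mouse strain, and both groups carried tumors, so no normal endothelium enters the comparison.

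The libraries differed in depth and in the marker sums of several cell types. Recovered reads on genes ran from 12512772 to 64938728 with agonistic CD40 mAb and from 2971689 to 35583141 in the isotype control group. The shallowest library, 5L of the isotype control group, stood apart. Its sum over 12 endothelial markers was 43908 normalized reads, 0.786 times the mean of the other isotype control libraries, its sum over 8 melanoma markers was 98416, which was 2.18 times theirs, and its sums over fibroblast and mural cell markers were 0.450 and 0.374 times theirs. The endothelial marker sums ranged from 50926 to 72358 with agonistic CD40 mAb and from 43908 to 61646 in the isotype control group. Despite the CD31 gate, melanoma marker sums of at least 37375 and fibroblast marker sums of at least 106877 normalized reads were measured in every library. In bulk samples such as these, fewer cells of a type and less RNA per cell cannot be told apart, and the part of tumor and stromal RNA in the values below was not tested.

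Promoter windows from 250 bases before to 50 bases after an annotated start were available for 5 of the 10 genes, as 8 windows in RefSeq on GRCm38.p6. They were searched on both strands for AGGTCA, the hexamer to which PPARγ and other nuclear receptors bind. The hexamer occurred in 3 of these 8 windows, compared with 16.3% of all 32851 windows. These are shown because PPARγ is itself one of the genes and Cd36 one of its known targets, with the hexamer, as read on the gene's strand, in capitals. The Cd36 window, at chr5:17835847-17836146 on the minus strand, lies at a start inside the span of the gene and holds the hexamer in reverse orientation. The windows of Pparg, at chr6:115360894-115361193 and chr6:115362099-115362398 on the plus strand, belong to separate starts.
Cd36: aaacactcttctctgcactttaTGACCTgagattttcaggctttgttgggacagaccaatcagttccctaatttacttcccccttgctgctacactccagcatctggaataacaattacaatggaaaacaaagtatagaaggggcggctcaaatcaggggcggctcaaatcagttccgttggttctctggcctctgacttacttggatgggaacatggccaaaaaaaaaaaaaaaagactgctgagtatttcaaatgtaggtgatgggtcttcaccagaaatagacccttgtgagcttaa
Pparg, first start: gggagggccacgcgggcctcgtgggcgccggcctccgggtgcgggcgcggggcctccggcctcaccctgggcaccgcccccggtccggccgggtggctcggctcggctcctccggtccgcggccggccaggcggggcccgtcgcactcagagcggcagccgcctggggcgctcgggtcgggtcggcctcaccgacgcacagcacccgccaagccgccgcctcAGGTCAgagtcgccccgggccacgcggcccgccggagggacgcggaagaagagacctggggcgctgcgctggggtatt
Pparg, second start: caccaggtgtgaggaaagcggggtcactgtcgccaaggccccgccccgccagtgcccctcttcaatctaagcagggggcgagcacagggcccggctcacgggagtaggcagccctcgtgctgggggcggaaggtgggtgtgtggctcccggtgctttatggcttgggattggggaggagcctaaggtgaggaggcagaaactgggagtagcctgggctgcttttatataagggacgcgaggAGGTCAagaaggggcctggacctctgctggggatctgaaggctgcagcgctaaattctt
The third Pparg window and those of Cav1, Meox2 and Slc27a3 held no AGGTCA. The core of a STAT site, TTC and GAA with 3 bases of any kind between them, was in 0 of the 8 windows and in 8.30% of all windows, and the homeodomain core TAATTA was in 0 of the 8 and in 5.29% of all. A match of these letters describes the sequence and does not show binding.

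The fatty acid uptake genes spanned a wide range of levels in the sorted cells. By reads, Cav1 and Fabp4 ranked 80 and 97 among the 20057 genes, whereas Slc27a3 ranked 10065 and Tcf15, near the filter on low values, 12307. On a scale of normalized reads per kb of the principal transcript, averaged over all 8 libraries, Fabp4 was highest at 7978 ± 2294 (SD, n = 8). Cav1 followed at 3167 ± 529, Gpihbp1 at 2692 ± 529, Cd36 at 1296 ± 430 and Fabp5 at 1283 ± 261. A lower group was formed by Meox2 at 197 ± 43.2, Lpl at 149 ± 57.9 and Pparg at 117 ± 30.5, and the lowest levels were those of Slc27a3 at 30.8 ± 12.4 and Tcf15 at 15.6 ± 6.99. Fabp4 was above Cav1 in 8 of 8 libraries and Fabp5 above Meox2 in 8 of 8, with ranges that did not overlap, and Pparg was likewise above Slc27a3. Gpihbp1 was above Cd36 and Slc27a3 above Tcf15 in 8 of 8 libraries as well, although their ranges over the libraries overlapped. The order of the remaining neighbors was less clear. Cd36 exceeded Fabp5 in 5 of 8 libraries, a ratio of 1.01, Lpl exceeded Pparg in 6, and Cav1 exceeded Gpihbp1 and Meox2 exceeded Lpl in 7. When all annotated exons were merged instead, Fabp4 had 4.49 kb in place of 0.896 kb, and the first 2 ranks were exchanged, as were those of Gpihbp1 and Cd36 and those of Lpl and Pparg.

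**Figure D1:**
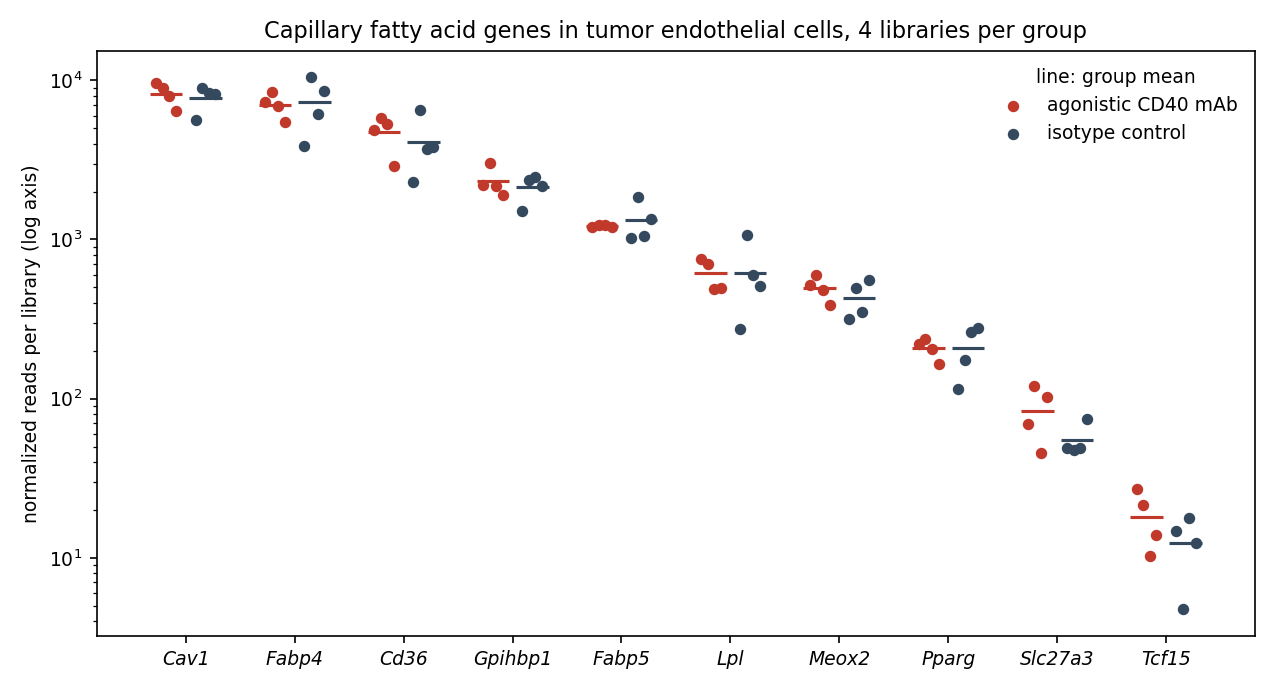
Normalized reads of the 10 genes on a log axis, with 1 point per library and a line at each group mean, for 4 agonistic CD40 mAb and 4 isotype control libraries. The groups overlapped in all 10 genes, and the Fabp5 values of the treated group, 1196 to 1239, lay closest together.

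Whether CD40-stimulating immunotherapy shifted this program was asked by comparing the 4 treated with the 4 control libraries. None of the 10 genes changed past the threshold used, which asks for group means that differ at least 1.5-fold and for a limma p, before adjustment, of no more than 0.05. Over all 12969 genes tested, 1.28% passed it as higher with agonistic CD40 mAb and 0.239% as lower. None of the 10 had a limma p of at most 0.05, compared with 2.01% of all genes, and edgeR and DESeq2 on the recovered reads also gave 0 genes of the 10 at that unadjusted p. At a Benjamini-Hochberg adjusted limma p under 0.05, which 0.0154% of all genes reached, the count was 0 as well. The groups overlapped in all 10 genes, whereas they did not in 1.57% of all genes. The estimates leaned upward by little: 9 of 10 log2 fold changes were above 0, against 51.3% of all genes, and their median was 0.13, against 0.00 over all genes. The endothelial markers leaned the same way, with 11 of 12 above 0 and a median of 0.13, as did 9 of 11 capillary markers outside the 10 genes, with a median of 0.24. So did 7 of 7 lymphatic endothelial markers (median 0.86), 8 of 10 arterial markers (median 0.34) and 7 of 8 venous markers (median 0.18). Of other cell types, 7 of 10 macrophage markers (median 0.38) and 6 of 8 fibroblast markers (median 0.15) were above 0. The few adipocyte and leukocyte markers tested were above 0 in 3 of 3 (median 0.47) and 2 of 2 (median 0.84). The melanoma markers (0 of 8 above 0, median -0.08) and the mural cell markers (1 of 9, median -0.20) leaned downward. Without library 5L, 4 of the 10 fatty acid uptake genes were above 0 and their median was -0.04. With values scaled to the summed endothelial markers, 4 of 10 were above 0 as well, and the median was -0.03 where that of all genes was -0.16.

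At the vessel surface, lipoprotein lipase and its anchor did not differ between groups beyond the spread between libraries. Lpl, the lipase itself (mm10, as all positions given here, chromosome 8, 68880491 to 68907448, plus strand), was at 758, 706, 487 and 494 normalized reads in 5N, 6L, 6R and 10N and at 274, 1073, 599 and 511 in 5L, 7N, 8N and 9L. The isotype control group held both the lowest and the highest library, so its SD was larger, with 611 ± 141 (SD, n = 4) for agonistic CD40 mAb and 614 ± 335 (SD, n = 4) for isotype control. The ratio of means was 0.995, and the limma log2 fold change, which compares means of logarithms, was 0.13 (SE 0.34, adjusted p = 1.000 by limma). The ratio was 0.840 when 5L was left out. Lpl is also made by adipocytes, muscle and macrophages. The adipocyte marker sum was 29.6 to 161 with agonistic CD40 mAb and 42.8 to 71.1 with isotype control, with 10N the highest. Adipoq, the adipocyte hormone adiponectin, was at 0 in 4 of 8 libraries and at 14.5 in 10N and 9.53 in 9L, its highest values, and of the 10 markers Slc2a4 (16.6 to 70.2) and Plin4 (4.12 to 29.0) were above 0 in every library. The skeletal muscle sum was at most 28.6 and the macrophage sum ranged from 240 to 584, and the part of these cells in the Lpl values was not tested.

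Gpihbp1, which carries the lipase across the endothelium and holds it there (chromosome 15, 75596628 to 75599481, plus strand), varied 1.99-fold from the lowest to the highest library, where Lpl varied 3.92-fold. In the same order of libraries, which is kept for all genes that follow, it was at 2207, 3025, 2162 and 1889 normalized reads in the treated group and at 1518, 2358, 2452 and 2156 in the isotype control group. Library 6L was the highest and 5L the lowest, and the remaining libraries of both groups overlapped. The means were 2321 ± 490 and 2121 ± 421 (SD, n = 4 each), with a log2 fold change of 0.13 (SE 0.18, adjusted p = 1.000 by limma). Without 5L the ratio of means was 1.000.

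Of the uptake proteins, Cd36 was abundant and variable. Cd36, a scavenger receptor for fatty acids and lipoproteins (chromosome 5, 17781690 to 17888801, minus strand), was at 4878, 5831, 5311 and 2906 normalized reads in the treated group and at 2295, 6495, 3715 and 3800 in the isotype control group. In the treated group 10N was low, and in the control group 7N was higher than any treated library. The means were 4732 ± 1278 and 4076 ± 1754 (SD, n = 4 each), a ratio of 1.16, and the log2 fold change was 0.27 (SE 0.30, adjusted p = 1.000 by limma, exact permutation p = 0.571). Without 5L the ratio was 1.01.

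Slc27a3, which encodes the fatty acid transport family member FATP3 and an acyl-CoA synthetase activity (chromosome 3, 90385239 to 90389938, minus strand), had the largest ratio of the list. It was at 69.0, 120, 45.7 and 102 normalized reads in the treated group and at 48.9, 47.6, 49.0 and 74.3 in the isotype control group. Libraries 6L and 10N exceeded every control library, whereas 6R was the lowest of all 8. The means were 84.1 ± 33.1 and 54.9 ± 12.9 (SD, n = 4 each), a ratio of 1.53, and the log2 fold change of 0.54 (SE 0.31) did not pass the threshold (adjusted p = 1.000 by limma). The exact two-sided permutation test gave p = 0.257, where the smallest p that 4 against 4 libraries allow is 0.0286. The log2 fold change ran from 0.34 without 6L to 0.80 without 6R when single libraries were left out, and the gene passed the threshold in the latter case alone. Its adjusted limma, edgeR or DESeq2 p was at least 0.939 in every alternative.

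Inside the cell, the fatty acid binding proteins did not differ between groups beyond their spread. Fabp4, typical of capillary and adipose cells (chromosome 3, 10204088 to 10208576, minus strand), was at 7274, 8492, 6915 and 5447 normalized reads in the treated group and at 3878, 10439, 6109 and 8628 in the isotype control group. All 4 treated libraries lay inside the range of the controls. The means were 7032 ± 1254 and 7264 ± 2872 (SD, n = 4 each), a ratio of 0.968, with a log2 fold change of 0.03 (SE 0.28, adjusted p = 1.000 by limma). Here, as for Lpl and Pparg, the ratio of means and the log2 fold change pointed in different directions. Leaving out 5L gave a ratio of 0.838 for Fabp4.

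Fabp5, the epidermal form that endothelium also expresses (chromosome 3, 10012548 to 10016607, plus strand), was the single gene of the 10 with a log2 fold change below 0. It was at 1197, 1227, 1239 and 1196 normalized reads in the treated group and at 1022, 1853, 1058 and 1336 in the isotype control group. The treated libraries were nearly equal, with a coefficient of variation of 1.77% against 29.2% in the controls, and all of them lay within the control range. These values stood for 2060 to 10167 reads in the treated libraries and for 418 to 6164 in the controls. The part of depth in either spread was not tested. The means were 1215 ± 21.5 and 1317 ± 384 (SD, n = 4 each), and the log2 fold change was -0.07 (SE 0.17, adjusted p = 1.000 by limma). The ratio of means was 0.858 when 5L was left out. Fabp5 shares 5.48% of its 50-base windows with other annotated genes, among them Fabp5l2, and Lpl shares 1.14%. The windows were pooled over all annotated transcripts, 3611 for Fabp5, whose principal transcript is 0.987 kb. What part of their reads this makes uncertain was not tested. Per kb, Fabp4 exceeded Fabp5 by a factor of 6.37 ± 1.09 in the treated group and by 5.97 ± 1.25 in the control group (SD, n = 4 each), and it ranged from 4.18 in 5L to 7.63 in 6L.

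Cav1, the main coat protein of caveolae (chromosome 6, 17306335 to 17341452, plus strand), had the most reads of the 10 genes. It was at 9578, 8978, 7938 and 6460 normalized reads in the treated group and at 5609, 8917, 8271 and 8146 in the isotype control group. Libraries 5N and 6L were above every control library, 5L was below all others, and the rest overlapped. The means were 8239 ± 1366 and 7736 ± 1458 (SD, n = 4 each), and the log2 fold change was 0.10 (SE 0.18, adjusted p = 1.000 by limma), with a ratio of 0.976 when 5L was left out.

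Of the regulators, Meox2, a homeodomain factor (chromosome 12, 37108540 to 37179534, plus strand), was at 521, 602, 483 and 388 normalized reads in the treated group and at 318, 492, 350 and 559 in the isotype control group. Library 6L was the highest and 5L the lowest, and 3 of the 4 treated libraries were above the control median. The means were 499 ± 88.6 and 430 ± 115 (SD, n = 4 each), and the log2 fold change was 0.24 (SE 0.20, adjusted p = 1.000 by limma). When 5L was left out, the log2 fold change of Meox2 was 0.10 and the ratio of means 1.07. Tcf15, its basic helix-loop-helix partner (chromosome 2, 152143561 to 152149097, plus strand), was at 27.0, 21.5, 10.2 and 13.9 with agonistic CD40 mAb and at 14.7, 4.76, 17.7 and 12.4 in the isotype control group. It was the weakest of the 10 genes, at means of 18.2 ± 7.52 and 12.4 ± 5.52 (SD, n = 4 each), with 327 reads in the treated and 78 in the control group, and the value of 7N stood for 2 reads. Its log2 fold change of 0.56 (SE 0.48, adjusted p = 1.000 by limma) was the largest of the list and the least precise, and it was 0.02 with library quality weights and 0.19 without 7N.

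Pparg, the nuclear receptor (chromosome 6, 115360951 to 115490399, plus strand), was at 220, 236, 205 and 165 normalized reads in the treated group and at 115, 176, 263 and 278 in the isotype control group. The control group again held the lowest and the highest libraries, and its lowest was 5L. The means were 207 ± 30.2 and 208 ± 76.7 (SD, n = 4 each), and the log2 fold change was 0.06 (SE 0.26, adjusted p = 1.000 by limma). Leaving out 5L gave a ratio of means of 0.864.

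**Figure D2:**
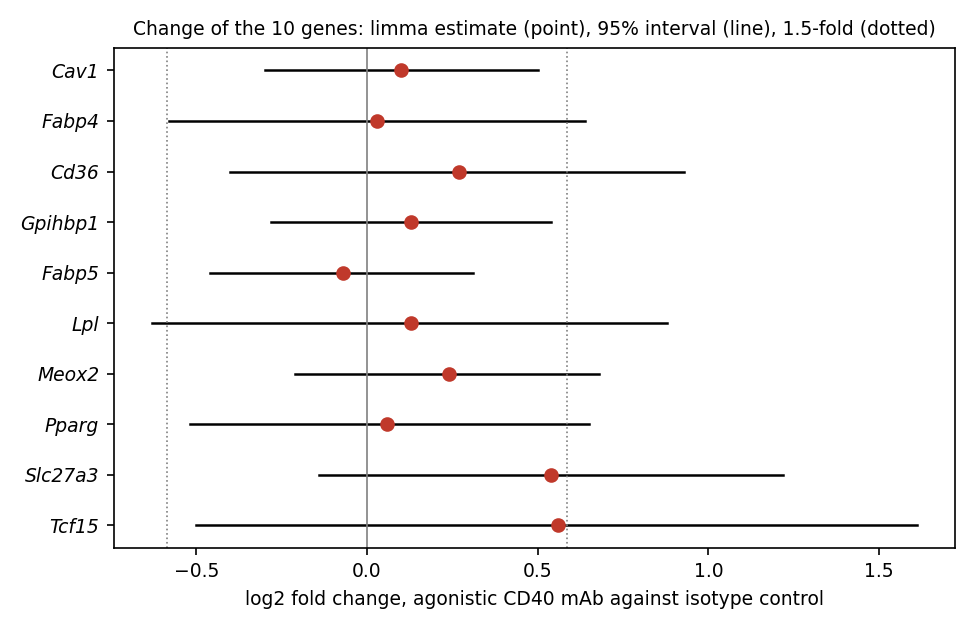
Limma log2 fold changes of the 10 genes, agonistic CD40 mAb against isotype control, as points with 95% intervals, and dotted lines at a 1.5-fold change. Every interval includes 0, from the narrowest, Fabp5, at -0.46 to 0.31, to the widest, Tcf15, at -0.50 to 1.61.

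The intervals set how far a change could have been missed in the limma fit to all 8 libraries. A 1.5-fold rise lay inside the 95% interval of 7 of the 10 genes, and a 1.5-fold fall inside that of 1, Lpl, at -0.63 to 0.88. For Fabp5, Gpihbp1 (-0.28 to 0.54) and Cav1 (-0.30 to 0.50), a change of 1.5-fold in either direction was outside the interval of that fit. Scaling to the summed endothelial markers moved the Fabp5 estimate to -0.24, and intervals under the alternatives are not given. For Cd36 the interval ran from -0.40 to 0.93, and for Slc27a3 from -0.14 to 1.22, so a rise of more than 1.5-fold lay inside both.

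Libraries within each group differed in these genes. Library 5L was the lowest of the 8 in 8 of the 10 genes, while it was the lowest for 29.7% of all genes tested and for 30.1% of the 9251 genes with a mean over 100 normalized reads. Relative to each gene's own mean over the 8 libraries, on the log2 scale, the median of the 10 genes was -0.52 in 5L, -0.22 in 10N and 0.36 in 6L. In 10N, 8 of 10 genes were below their own mean, as were 48.9% of all genes. Library 7N was the highest in 4 genes, Cd36, Fabp4, Fabp5 and Lpl, and the lowest in Tcf15, while it was the highest for 26.5% and the lowest for 21.1% of all genes tested. Compared with the mean of the other control libraries, 5L was lowest in Lpl, with a ratio of 0.376, followed by Fabp4 at 0.462, Pparg at 0.480 and Cd36 at 0.491. Tcf15, at 1.26, was the one gene above it. The ratio of the endothelial marker sum was 0.786, and that of 11 capillary markers outside the 10 genes was 0.775, and 8 of the 10 genes had a lower ratio than either. The lymphatic endothelial marker sum was lower, at 0.593, and 4 of the 10 genes were below it. The part of depth and of tumor RNA in the low values of 5L was not tested.

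**Figure D3:**
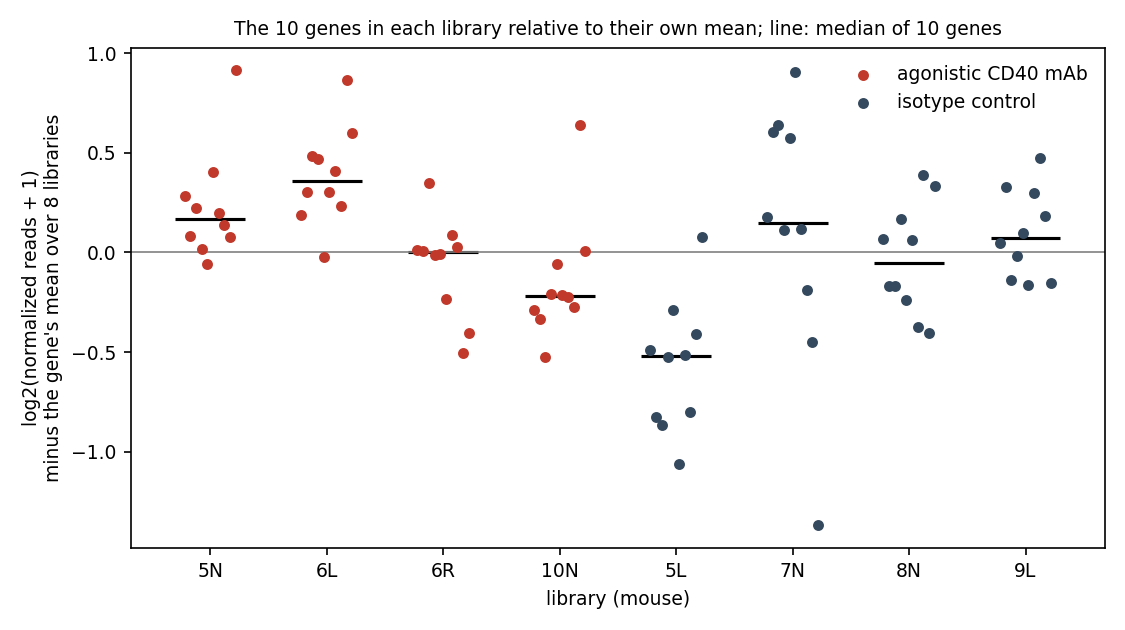
Deviation of each of the 10 genes from its own mean, in log2(normalized reads + 1), for each library, with a line at the median of the 10 genes. The line is lowest in 5L, at -0.52, and highest in 6L, at 0.36, and both groups hold libraries on either side of 0.

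Over the 8 libraries the log2 values of the 10 genes were correlated with each other to varying degree, with a Pearson's r from -0.75 to 0.88 and a median of 0.53 over the 45 pairs. These values are a description, since all genes of a library share its depth and its sort, and the libraries differed in depth and in marker sums. For genes with a mean over 100 normalized reads, the genes most like them in pattern over the 8 libraries were Usp25, Tcf7l2 and Morf4l1 for Cd36 (r = 0.97 each), Tnfrsf10b for Fabp4 (0.99), Rpl5 for Fabp5 (0.97) and Zdhhc20 for Lpl (0.99). For Gpihbp1 the nearest was Kctd12b (0.98), for Meox2 Dnttip1 (0.97), for Pparg Sqrdl (0.97) and for Cav1 Zfp931 (0.99).

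The comparison was extended to the wider fatty acid pathway. Of 111 further genes tested from 8 lists of lipid handling, 1 (0.901%) passed the threshold as higher and 0 as lower, a share no larger than the 1.28% of all genes called higher, and their median log2 fold change was -0.01, with 48.6% above 0. Before adjustment 1 of the 111 had a limma p of at most 0.05, where 2.01% of all genes did. The gene past the threshold was Acss2, an enzyme that makes acetyl-CoA from acetate. It was at 81.6, 78.5, 86.6 and 78.4 normalized reads in the treated group and at 44.0, 38.1, 68.1 and 62.6 with isotype control, so that every treated library was above every control library. The means were 81.3 ± 3.88 and 53.2 ± 14.4 (SD, n = 4 each), a ratio of 1.53, with a log2 fold change of 0.64 (SE 0.23, adjusted p = 1.000 by limma). The exact permutation p was 0.0286, the smallest that 4 against 4 can give. Its call was lost in 8 of 20 alternatives. In 6 of them the unadjusted p stayed under 0.05 and the ratio fell short of 1.5, at 1.48 with edgeR, 1.46 with DESeq2, 1.49 with quantile normalization, and 1.49, 1.44 and 1.40 without 6R, 5L or 7N. The p itself was above 0.05 with scaling to the summed endothelial markers (log2 fold change 0.48) and with library quality weights, which gave the lowest log2 fold change, 0.37. Acss2 overlaps genes on the opposite strand (Acss2os, Ggt7 and Gss), and the library kit keeps no strand, so their reads cannot be told apart there.

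**Figure D4:**
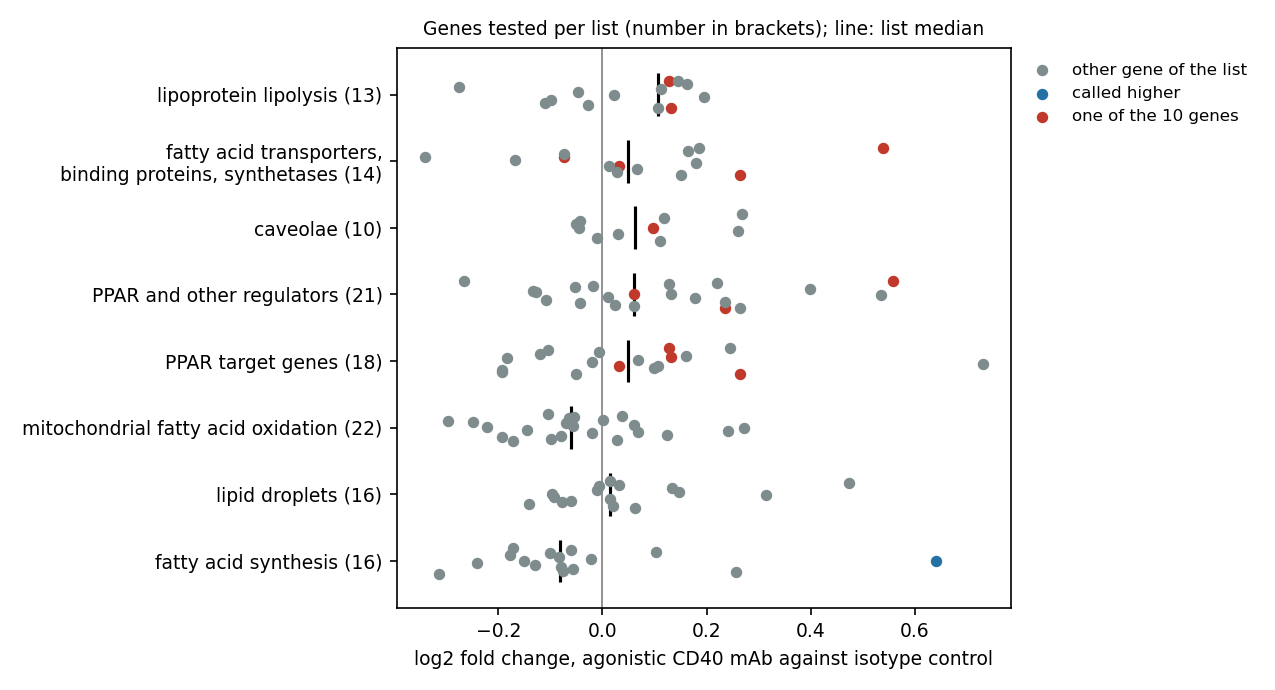
Limma log2 fold changes of the genes tested in each of the 8 lists, with the 10 genes in red, the gene past the threshold, Acss2, in blue, and a line at each list's median. The medians lie between -0.08 and 0.11.

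Lipolysis genes other than Lpl and Gpihbp1 counted 11 tested, with 0 past the threshold and a median log2 fold change of 0.02. The proteoglycan core protein Sdc1, a receptor for remnant lipoproteins in liver, was at 704 ± 145 and 874 ± 289 (SD, n = 4 each; log2 fold change -0.28, exact permutation p = 0.314). Of 10 further transporters, binding proteins and acyl-CoA synthetases, 0 passed and the median was 0.05. The synthetase gene Acsl5 was the other lipid gene whose groups did not overlap, which makes 2 of the 111 (1.80%) beside 1.57% of all genes. It was at 1296 ± 27.0 and 1148 ± 111, a ratio of 1.13 below the threshold (exact permutation p = 0.0286), and it overlaps Zdhhc6 on the opposite strand. Of 9 further caveolae genes, 0 passed and the median was 0.03. Ehd4 was at 2187 ± 250 and 1841 ± 336 (exact permutation p = 0.171). Sdpr, the older symbol of cavin-2, was at 2309 ± 666 and 1868 ± 273 (exact permutation p = 0.314).

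Among 18 further regulators, including nuclear receptors and endothelial growth factor receptors, 0 passed and the median was 0.04. Nr1h3, the sterol-sensing receptor LXRα, was at 53.7 ± 25.5 and 34.7 ± 6.79 normalized reads (SD, n = 4 each; exact permutation p = 0.143). Of 14 further known PPAR targets, 0 passed and the median was -0.01, with Aqp7, a glycerol channel, at 47.2 ± 31.3 and 32.1 ± 32.8 (exact permutation p = 0.514). Without 7N, whose value of 80.9 was high among the controls, Aqp7 passed the threshold with a log2 fold change of 1.32.

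Genes that use or store fatty acids were compared in the same way. All 22 genes of mitochondrial oxidation were tested and 0 passed, with 8 of 22 log2 fold changes above 0 and a median of -0.06. Decr1, an enzyme for unsaturated fatty acids, was at 295 ± 28.6 and 343 ± 26.2 (SD, n = 4 each; exact permutation p = 0.0571), and Crat, carnitine acetyltransferase, at 278 ± 6.38 and 234 ± 45.7 (exact permutation p = 0.0571). Of 16 lipid droplet genes 0 passed, with a median of 0.02 and Lipe, hormone-sensitive lipase, at 147 ± 25.8 and 118 ± 24.8 (exact permutation p = 0.171). When every gene with a value above 0 was tested, Plin1, a droplet protein of adipocytes that the filter on low values leaves out, passed the threshold as higher, at 3.56 ± 3.20 and 0.449 ± 0.642 (adjusted p = 1.000 by limma). Of 16 fatty acid synthesis genes, Acss2 alone passed, 3 were above 0 and the median was -0.08.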

How the data were processed

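The signal values analyzed, 1 normalized read count per gene and library, were deposited by the authors, who used TopHat2 for alignment to mm10, Partek Genomics Suite (6.6 per the labels) for gene assignment and DESeq2 size factors for scaling. The methods name flooring, trimming and a harvest day correction, none of which the values show: 100% of those up to 1000 reads lie within 0.1 read of a whole number, which allowed the reads to be recovered. Depth ranged 21.9-fold, with 1 read worth 0.118 to 2.44 normalized reads, so the shallow control libraries are less precise. Without molecular identifiers, reads are not independent molecules.

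Values were taken as log2(value + 1) and fitted with limma 3.58.1 (R 4.3.3), using a variance trend and treatment alone as the term, on the 12969 genes whose larger group mean exceeded 10. The means, SDs and ratios are of normalized reads without logarithm. Benjamini-Hochberg adjustment covered all genes tested. The threshold was that of the paper, 1.5-fold between group means with p up to 0.05 before adjustment. Exact permutation tests were two-sided. P-values measure the spread between mice, 1 library each. The 2-way model of the paper was not followed, since only the tumor endothelial libraries were used here, and harvest day, which the labels do not give, was not a term.

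The 10 genes and all lists were chosen with earlier results of these data known. Besides the 10 genes, each list's called genes, its 2 lowest p-values and its 2 largest means were eligible for naming, and the 3 most similar genes over 8 libraries. Positions, overlaps and transcript lengths come from GENCODE M21 (mm10). Alternatives were pseudocounts of 0.1 and 10, values floored at 1, all genes, a group mean above 50, quantile and TMM scaling, limma without trend or with quality weights, edgeR 4.0.16, DESeq2 1.42.0 and leaving out each library. Scaling to the summed endothelial markers and the merged-exon length were chosen after seeing the data. The fits were tested on simulated data.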

Additional observations from a re-analysis of the deposited data

Results flagged for a closer look

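In the isotype control group, Slc27a3 in library 9L lay far from the others. It was at 74.3 normalized reads, whereas 5L, 7N and 8N were at 48.9, 47.6 and 49.0, and the gap to the nearest library made up 0.947 of the range of the group. It was 1 of 20 groups examined, and chance sets apart about 1 in 20 groups. The comparison for Slc27a3 held the same side of the threshold without 9L.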

How the results depend on the processing

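None of the 10 genes was called lower under any of the 20 alternatives, and 1, Slc27a3, was called higher when 6R was left out, so that the count of genes called higher ran from 0 to 1 when single libraries were left out. Of 199 gene values under the alternatives, 174 kept their direction and their side of the threshold and 24 turned direction, all of them without passing it. With library quality weights the log2 fold changes of Fabp5, Lpl, Gpihbp1, Pparg and Cav1 were 0.07, -0.02, -0.05, -0.31 and -0.04. With edgeR those of Fabp4 and Pparg were -0.04 and -0.04, and with DESeq2 -0.04 and -0.03. Scaling to the summed endothelial markers moved the median of all genes to -0.16, and gave Fabp4 -0.13, Lpl -0.03, Gpihbp1 -0.03, Pparg -0.10 and Cav1 -0.07, each above that median, whereas Fabp5, at -0.24, was below it. When single libraries were left out, the log2 fold change ran from -0.05 to 0.21 for Cav1, from -0.24 to 0.24 for Fabp4, from -0.18 to 0.10 for Fabp5, from -0.02 to 0.22 for Gpihbp1, from -0.20 to 0.45 for Lpl and from -0.19 to 0.23 for Pparg. The causes were not tested. Cd36, Meox2, Slc27a3 and Tcf15 stayed above 0 throughout, at a lowest of 0.02 for Cd36 (without 5L), 0.07 for Meox2 (endothelial scaling), 0.34 for Slc27a3 (without 6L) and 0.02 for Tcf15 (quality weights). Tcf15 was not tested with a group mean above 50. The median of the 10 genes ran from -0.04, without 5L, to 0.22. In the limma fit to all 8 libraries, 4 per group, a 1.5-fold rise lay within the 95% intervals of 7 genes. These were Cd36, Fabp4, Meox2, Lpl, Pparg, Slc27a3 and Tcf15, and not Cav1, Gpihbp1 or Fabp5. No paired analysis was possible because the labels give no replicate numbers, and the numbers in the mouse names coincide between groups only for 5N and 5L, which nothing in the labels describes as a pair. Within the treated group, 6L and 6R also share a number, and a possible relation between these mice was not modeled.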
